A study of Mus musculus with 30 samples.

Results

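The macrophage and C1q complement genes described here are 10 genes of a bulk RNA-seq study of mouse colon, taken from the deposited count table as the rows whose gene symbol was C1qa, C1qb, C1qc, Csf1r, Cd68, Adgre1, Cd163, Mrc1, Lyz2 or C3. They are 10 of the 31023 genes in the table. All 10 were also among the 19558 genes with enough counts to be tested.

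C1q is the recognition molecule of the classical complement pathway. It is assembled from A, B and C chains, encoded by C1qa, C1qb and C1qc, and its binding to immune complexes or dying cells starts a cascade that cleaves C3. The liver supplies most complement proteins, but C1q is made mainly by macrophages, the phagocytes that lie beneath the gut epithelium and are renewed from blood monocytes. Macrophages depend on the receptor encoded by Csf1r. Cd68, Adgre1 (the F4/80 antigen), Cd163, Mrc1 (CD206) and Lyz2 are used to mark them in mouse tissue, whereas C3 is also made by epithelial and stromal cells.

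The mice were male, 8 to 12 weeks old, and either C57BL/6 wild type (WT) or C57BL/6 Smox-/-, in which the gene for spermine oxidase, the enzyme that makes spermidine from spermine, is deleted. The study followed the effect of this deletion and of added spermidine on colon gene expression during carcinogenesis. AOM-DSS stands for azoxymethane, a carcinogen injected intraperitoneally at 12.5 mg/kg, followed by 3 cycles of the irritant dextran sulfate sodium at 4% for 5 days, begun on days 5, 26 and 47. Spermidine was drunk at 14 mM in water over the 56 days, and tissue was taken on day 56. There were 10 groups of 3 samples, with 1 library each. The tumor groups were Smox-/- tumors after AOM-DSS alone and WT tumors after AOM-DSS plus spermidine. The other groups were, for each genotype, non-tumor tissue after AOM-DSS plus spermidine, non-tumor tissue after AOM-DSS alone, colon after spermidine alone, and untreated colon. WT tumors after AOM-DSS alone and Smox-/- tumors after AOM-DSS plus spermidine were not analysed here, so that genotype and spermidine cannot be told apart between the tumor groups. Neither the deleted part of Smox nor any shared mouse of tumor and non-tumor samples is given in the labels.

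Library totals ran from 33060607 to 81011304 counts. Levels are given in CPM, counts scaled by the size of each library. Epithelial Epcam was at 1545 CPM or more in all 30 libraries. The Smox transcript was counted in every library, at 18.6 to 68.7 CPM in Smox-/- mice and 25.1 to 169 CPM in WT mice. In untreated colon it was at 27.4 to 36.2 CPM in Smox-/- mice and 25.1 to 27.6 CPM in WT mice, and the library labelled replicate 1 of Smox-/- non-tumor tissue after AOM-DSS plus spermidine had 63.1 CPM, above the 46.6 to 54.1 CPM of WT mice in that condition. Every Smox-/- library was below every WT library after spermidine alone, at 18.6 to 26.6 CPM against 43.7 to 49.4 CPM. The same held after AOM-DSS alone, at 26.1 to 35.8 CPM in Smox-/- and 41.8 to 50.7 CPM in WT non-tumor tissue. It held in tumors too, at 44.03 to 68.7 CPM against 123 to 169 CPM, where the groups also differ in spermidine. Counts over the whole gene therefore do not check the genotype labels in untreated colon or after AOM-DSS plus spermidine. Certain libraries stood apart. Replicate 3 of untreated WT colon had 255810 summed CPM from 8 mitochondrial genes, against 19752 to 95991 in the other 29 libraries, and 11.8 summed CPM from 6 genes of distal hindgut position, against 673 and 737 in its group. The library labelled Smox-/- whose Smox level lay above WT in its condition also had 1259 summed CPM from 10 Wnt target genes, against 109 and 76.2 in its group. Results without both of these atypical libraries are given where they differ. Replicate 1 of WT non-tumor tissue after AOM-DSS alone, which is neither of them, had 350 summed CPM from the Wnt target genes, against 55.8 and 62.6 in its group. In its group it also had the highest level of every gene described here. In bulk tissue, fewer macrophages and less RNA per macrophage cannot be told apart.

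The C1q genes lie side by side on chromosome 4 (GRCm38), all on the minus strand, with C1qb at 136880129 to 136886187, C1qc at 136889804 to 136893065 and C1qa at 136895917 to 136898803. The cluster spans 18675 bp, with 3616 bp between C1qb and C1qc and 2851 bp between C1qc and C1qa. Promoter sequences from RefSeq (GRCm38.p6) were matched for 7 of the 10 genes, as the 250 bases before the annotated start, and not for C1qa, Csf1r and Adgre1. They were searched on both strands for GAGGAA, the core bound by the macrophage transcription factor PU.1. The motif was in 4 of the 7 windows, those of C1qb, C1qc, Cd68 and Mrc1, and in 23.3% of all 32851 windows. These letters were not in the windows of C3, Cd163 and Lyz2. The AP-1 motif TGANTCA was in the Cd68 window and in 6.75% of all windows, and the C/EBP motif TTGCNNAA was in the C3 and Cd68 windows and in 9.56% of all windows. Motifs of interferon regulatory factors and of NF-kB were in none of the 7, and in 2.98% and 1.41% of all windows. Windows of 4 genes are shown, for a pair of adjoining C1q genes whose transcripts varied together and for the macrophage receptors Mrc1 and Cd163, which moved in opposite directions in tumors. They read 5′ to 3′ on the strand of the gene, with GAGGAA or its reverse complement TTCCTC in capitals. Annotated untranslated bases are left out, which shortens the C1qc and Mrc1 windows. The windows are chr4:136886201-136886450 (minus strand) for C1qb, chr4:136893066-136893164 (minus) for C1qc, chr2:14229164-14229391 (plus) for Mrc1 and chr6:124304401-124304650 (plus) for Cd163.
C1qb: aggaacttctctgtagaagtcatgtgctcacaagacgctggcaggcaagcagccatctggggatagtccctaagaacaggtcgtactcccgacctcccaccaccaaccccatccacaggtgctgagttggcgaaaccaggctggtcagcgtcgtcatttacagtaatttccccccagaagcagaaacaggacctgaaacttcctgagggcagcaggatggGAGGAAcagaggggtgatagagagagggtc
C1qc: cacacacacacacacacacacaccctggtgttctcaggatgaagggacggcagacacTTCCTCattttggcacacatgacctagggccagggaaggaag
Mrc1: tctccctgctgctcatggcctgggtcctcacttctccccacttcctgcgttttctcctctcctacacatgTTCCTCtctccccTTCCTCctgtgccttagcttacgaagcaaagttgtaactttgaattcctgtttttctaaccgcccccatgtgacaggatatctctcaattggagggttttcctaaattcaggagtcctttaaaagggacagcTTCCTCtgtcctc
Cd163: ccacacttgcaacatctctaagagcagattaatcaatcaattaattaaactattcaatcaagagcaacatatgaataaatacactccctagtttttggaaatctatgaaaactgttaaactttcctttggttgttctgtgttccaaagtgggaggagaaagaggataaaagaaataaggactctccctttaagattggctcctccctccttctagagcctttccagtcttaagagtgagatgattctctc

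Per kilobase of exon, Lyz2, which encodes the lysozyme of myeloid cells, had the highest mean level over the 30 libraries, at 40.7 CPM per kb. C1qa had 15.5, C3 13.4, C1qb 13.1 and C1qc 5.52 CPM per kb. Cd68, a lysosomal glycoprotein, had 2.76, Csf1r 1.95, Mrc1 1.4004 and Adgre1, an adhesion receptor, 0.797 CPM per kb. Cd163, the scavenger receptor for haptoglobin-bound hemoglobin, was lowest at 0.06298 CPM per kb, with 0 to 92 counts a library and no counts in 2 libraries. C3 varied most, 75.6-fold between the lowest and highest library, and the other 8 genes with counts in every library varied 6.95-fold to 14.3-fold. The other 7 genes are scattered (GRCm38), with Csf1r on chromosome 18 from 61100598 to 61132149 (plus strand), Cd68 on chromosome 11 from 69664213 to 69666153 (minus strand), Adgre1 on chromosome 17 from 57358691 to 57483527 (plus strand), Cd163 on chromosome 6 from 124304656 to 124330527 (plus strand), Mrc1 on chromosome 2 from 14229392 to 14332057 (plus strand), Lyz2 on chromosome 10 from 117277331 to 117282321 (minus strand) and C3 on chromosome 17 from 57203970 to 57228136 (minus strand). Lyz2 resembles its neighbour Lyz1, and the estimated counts may divide reads between them.

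**Figure D1:**
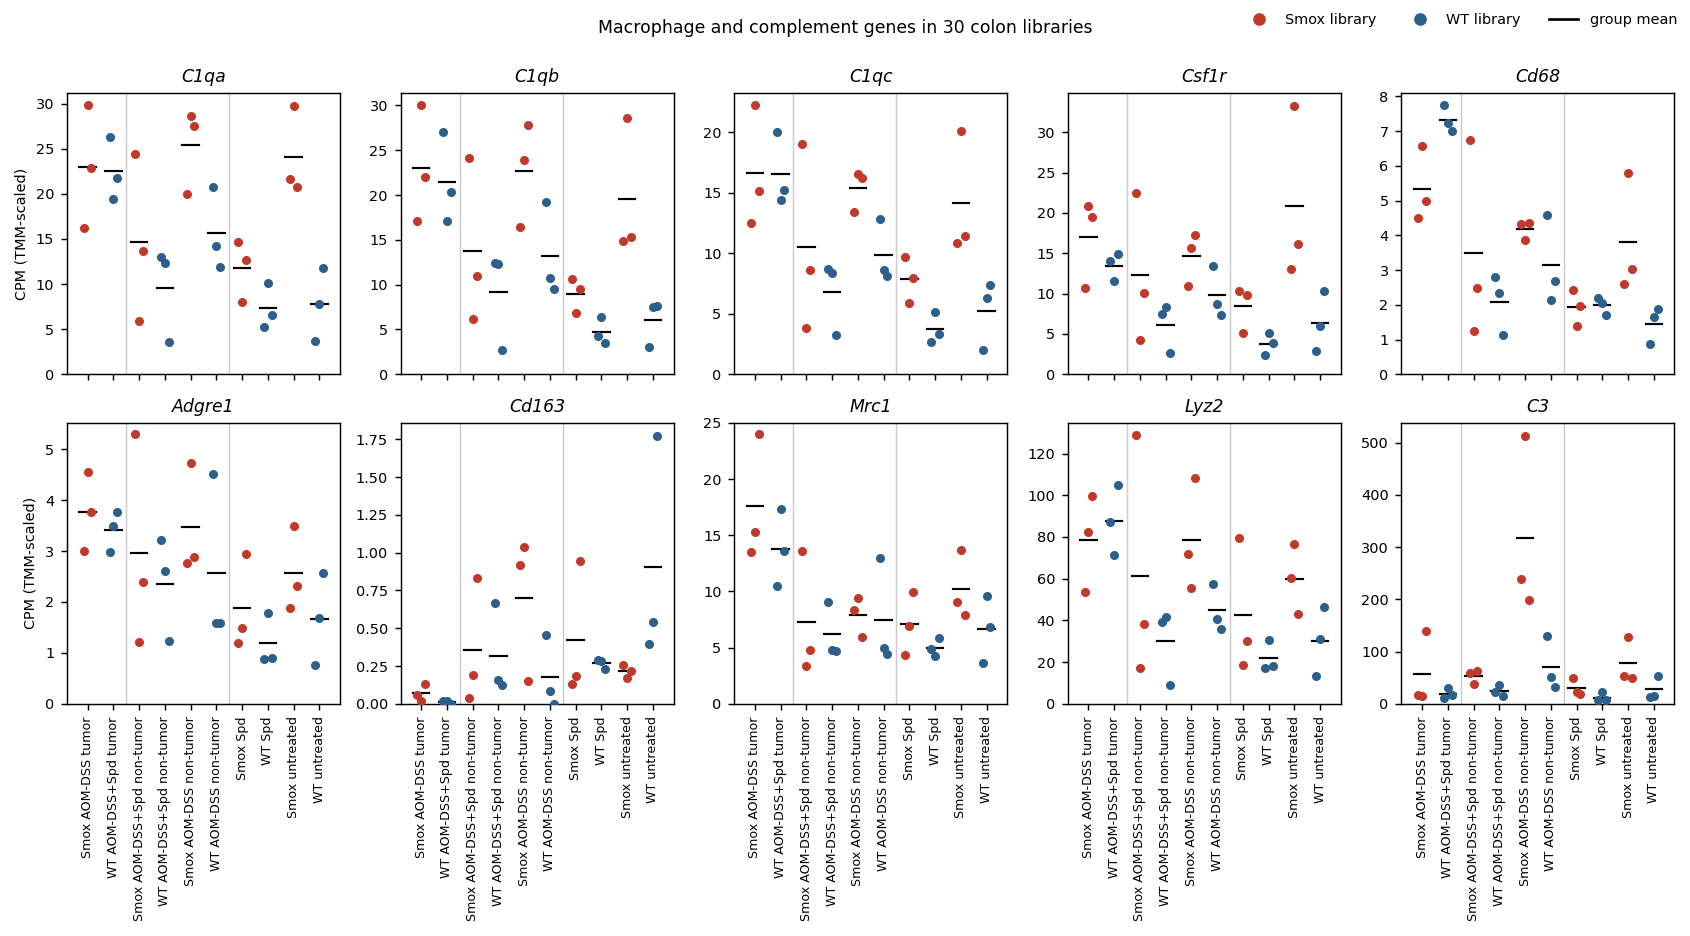
Level of each of the 10 genes (CPM, linear axis from 0) in the 30 libraries, by group, with points for libraries and bars for group means. The C1q genes and Csf1r have their lowest group means in WT colon after spermidine, Mrc1 and Cd68 are highest in tumors, and C3 is highest in Smox-/- non-tumor tissue after AOM-DSS alone.

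The C1q transcripts kept similar proportions. C1qa held 35.4 to 49.1% of their summed CPM over the 30 libraries, C1qb 25.9 to 38.9% and C1qc 21.8 to 33.8%. The sum itself ran from 8.76 CPM in replicate 1 of untreated WT colon to 82.02 CPM in replicate 2 of the Smox-/- tumors, a 9.37-fold range with a median of 34.6 CPM. By group, the C1qa mean was highest in Smox-/- non-tumor tissue after AOM-DSS alone, at 25.4 ± 4.701 CPM, and next in untreated Smox-/- colon, at 24.02 ± 4.91 CPM (SD, n = 3, as in every group). It was lowest in WT colon after spermidine, at 7.32 ± 2.47 CPM, and next lowest in untreated WT colon, at 7.78 ± 4.02 CPM. In the order of group means, no neighbouring groups were separated in all their libraries for any gene but Cd68 (2 of 9 neighbouring pairs) and C3 (1 of 9). In edgeR's quasi-likelihood test of any difference among the 10 groups, 8 of the 10 genes passed an adjusted p of 0.05, as did 58.9% of all genes tested. The exceptions were Adgre1 (adjusted p = 0.167, edgeR) and Lyz2 (adjusted p = 0.0753, edgeR). For the others adjusted p ran from 0.000498 for C3 to 0.0348 for Mrc1 (edgeR).

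Smox-/- colon outside tumors held more C1q, Csf1r and C3 transcript than WT colon. Averaged over the 4 non-tumor conditions, Smox-/- over WT, C1qa rose 1.87-fold, C1qb 1.997-fold, C1qc 1.93-fold, Csf1r 2.15-fold and C3 2.87-fold. Cd68, Adgre1, Mrc1, Lyz2 and Cd163 did not pass the test. For the C1q genes the largest separate difference was in untreated mice, where C1qa and C1qb passed by a small margin.

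In untreated colon, C1qa had 21.6, 29.7 and 20.8 CPM in Smox-/- mice, against 3.73, 7.84 and 11.8 CPM in WT mice. C1qb had 14.9, 28.6 and 15.3 CPM in Smox-/- mice, against 3.02, 7.55 and 7.64 CPM in WT mice. For both genes every Smox-/- library lay above every WT library, and both rose, C1qa 3.09-fold (log2 fold change 1.63, SE 0.473, adjusted p = 0.0448, edgeR) and C1qb 3.23-fold (log2 fold change 1.69, SE 0.507, adjusted p = 0.0495, edgeR). C1qc had 10.9, 20.1 and 11.5 CPM in Smox-/- mice, against 2.01, 6.297 and 7.35 CPM in WT mice (adjusted p = 0.0734, edgeR). Csf1r, the receptor for CSF1 and IL-34 on which macrophage survival depends, had 13.04, 33.3 and 16.1 CPM in Smox-/- mice, against 2.86, 5.98 and 10.3 CPM in WT mice (adjusted p = 0.0593, edgeR). Neither passed the test. Their libraries did not overlap between genotypes, but how many of all genes did so was not counted. Cd68 had 2.596, 5.79 and 3.02 CPM in Smox-/- mice, against 0.879, 1.64 and 1.87 CPM in WT mice, again without overlap (adjusted p = 0.074, edgeR). Cd163 lay the other way, with 0.258, 0.1702 and 0.219 CPM in Smox-/- mice, against 0.395, 0.541 and 1.77 CPM in WT mice (adjusted p = 0.255, edgeR).

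In untreated colon 2 of the 10 genes passed, both higher, where 5.95% of all genes passed and 2.63% passed as higher, and 5 of the 10 had an unadjusted p under 0.05, as had 24.2% of all genes. Both calls were lost when any 1 of the 6 libraries was left out, with adjusted p of 0.0639 to 0.193 for C1qa and 0.0568 to 0.242 for C1qb (edgeR). The count was 0 without both atypical libraries, of which 1 is a WT library of this comparison, and 5 with DESeq2. All 8 mitochondrial genes fell here, with 27972 to 38918 CPM summed in Smox-/- colon, against 63314 to 255810 CPM in WT colon. Smooth muscle genes, of which none of 6 passed with edgeR and 0 had an unadjusted p under 0.05, summed to 1039 to 3294 CPM in Smox-/- colon, against 4857 to 7559 CPM in WT colon. Of 9 neutrophil genes 3 rose, S100a9 (8.099), S100a8 (7.49) and Csf3r (4.47) on the log2 scale. Of 6 squamous epithelium genes 2 rose, Krt13 (10.36) and Krt4 (9.45), and the list summed to 3.96, 79.997 and 2131 CPM in Smox-/- colon, against 2.77, 2.15 and 21.4 CPM in WT colon. Skeletal muscle genes, of which 0 of 8 passed with edgeR (5 at an unadjusted p under 0.05), summed to 17.05, 55.6 and 285 CPM in Smox-/- colon, against 29.7, 36.4 and 8690 CPM in WT colon, the last being the atypical library. Their part in the result was not tested.

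In the other non-tumor conditions the genotypes overlapped more. After spermidine alone, Csf1r had 10.3, 5.16 and 9.79 CPM in Smox-/- mice, against 2.41, 5.13 and 3.85 CPM in WT mice (log2 fold change 1.15, SE 0.535, adjusted p = 0.501, edgeR). Csf1r narrowly did not overlap there, and neither did C1qb or C1qc. After AOM-DSS alone, C1qa had 19.98, 28.7 and 27.5 CPM in Smox-/- mice, against 20.7, 14.3 and 11.9 CPM in WT mice, with overlap. C1qc did not overlap there. After AOM-DSS plus spermidine, C1qa had 24.4, 5.95 and 13.6 CPM in Smox-/- mice, against 12.97, 12.3 and 3.52 CPM in WT mice, and the highest of the Smox-/- values is that of the atypical library labelled Smox-/-. None of the 10 genes passed in any of these 3 comparisons with edgeR or DESeq2. Of all genes 0.0818% passed after spermidine, 0.0665% after AOM-DSS and 0.251% after both. An unadjusted p under 0.05 was found with edgeR for 2, 1 and 0 of the 10 genes in the same order, and for 9.62%, 8.39% and 14.2% of all genes. C3 showed the widest gap after AOM-DSS alone, with 239.6, 513 and 199 CPM in Smox-/- mice, against 129, 50.9 and 31.3 CPM in WT mice (log2 fold change 2.17, SE 0.785, adjusted p = 0.493, edgeR). Every Smox-/- library was above every WT library for C3, as it was after AOM-DSS plus spermidine.

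Averaging the 4 differences, with 12 libraries of each genotype, gave 5 of 10 genes past the test, all higher in Smox-/- mice, where 5.78% of all genes passed and 3.75% passed as higher. The mean level of C1qa was 18.96 CPM in Smox-/- mice and 10.1 CPM in WT mice (log2 fold change 0.90, SE 0.232, adjusted p = 0.0236, edgeR). C1qb averaged 16.3 CPM in Smox-/- mice and 8.28 CPM in WT mice (0.998, SE 0.249, adjusted p = 0.0205, edgeR), and C1qc averaged 11.97 CPM in Smox-/- mice and 6.39 CPM in WT mice (0.95, SE 0.241, adjusted p = 0.0222, edgeR). Csf1r averaged 14.03 CPM in Smox-/- mice and 6.54 CPM in WT mice (1.11, SE 0.266, adjusted p = 0.0171, edgeR). C3, on which the complement pathways converge, averaged 119 CPM in Smox-/- mice and 33.7 CPM in WT mice (1.52, SE 0.386, adjusted p = 0.022, edgeR). Lyz2 averaged 60.7 CPM in Smox-/- mice and 31.8 CPM in WT mice, which did not pass (0.95, SE 0.308, adjusted p = 0.0695, edgeR). The log2 differences of the other macrophage markers were 0.62 for Cd68, 0.51 for Adgre1, 0.36 for Mrc1, the mannose receptor, and 0.16 for Cd163. The median over the 10 genes was 0.93, against 0.03 over all genes tested. Most of the 10 vary together, so that the median does not rest on 10 separate results.

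The Csf1r call held when each of the 24 non-tumor libraries was left out, with adjusted p up to 0.0498 (edgeR). Adjusted p reached 0.0614 for C1qa, 0.0581 for C1qb, 0.0632 for C1qc and 0.0586 for C3. Without replicate 2 of untreated Smox-/- colon the count was 1 gene, Csf1r. It was 2 without replicate 1 of Smox-/- colon after spermidine, without replicate 3 of WT non-tumor tissue after AOM-DSS alone, or without replicate 1 of non-tumor tissue after AOM-DSS plus spermidine, labelled Smox-/- with a Smox level above WT, and 7 at most. C1qa was also lost without replicate 1 of untreated WT colon, and C3 without replicate 3 of WT non-tumor tissue after AOM-DSS plus spermidine. Without both atypical libraries the count was 5, with log2 fold changes of 0.86 for C1qa, 0.88 for C1qb, 0.84 for C1qc, 1.04 for Csf1r and 1.73 for C3. Interaction tests set the genotypes against each other in the effect of spermidine, of AOM-DSS, and of spermidine under AOM-DSS. None of the 10 genes passed in these with edgeR or DESeq2, where 2.91%, 0% and 0% of all genes passed with edgeR. An unadjusted p under 0.05 was found for 1 gene, Cd68, in the first, 1 gene, Cd163, in the second and 0 in the third, and for 20.3%, 15.8% and 4.19% of all genes.

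Other macrophage and complement genes moved with genotype in the same average. Of 19 other macrophage genes tested, 8 rose and none fell. They include Spp1, which encodes osteopontin (2.61, with 91.2 CPM in 1 library of Smox-/- tissue after AOM-DSS plus spermidine), the surface receptor Cd84 (1.31), Spi1, which encodes PU.1 (1.26), and the adaptor Tyrobp (1.19), values being log2 fold changes. Of 9 complement receptor genes 4 rose, namely Itgb2 (1.55), Itgax (1.11) and Itgam (0.90), integrin genes of complement receptors 3 and 4, and C5ar2 (1.16), a receptor for C5a. Among the complement regulators Cd59b (-2.54) and Cd59a (-0.96), inhibitors of the membrane attack complex, fell. None of 5 classical pathway, 3 alternative pathway, 5 lectin pathway or 5 terminal pathway genes passed with edgeR, with 2, 1, 3 and 3 at an unadjusted p under 0.05, which 21.5% of all genes had. Of 10 tissue-resident macrophage genes 0 passed and 3 had an unadjusted p under 0.05. Of 8 genes of alternative activation 1 rose, Arg1, which encodes arginase 1 (3.74).

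Genes of other cells moved as well. Of 9 neutrophil genes tested 4 rose, among them S100a8 (3.46) and S100a9 (3.43), which encode calprotectin. The summed level of the neutrophil list did not follow these genes in every condition. It was 93.99 to 143 CPM in Smox-/- untreated colon, against 1.27 to 127 CPM in WT untreated colon, where the lowest is the atypical library. After spermidine it was 40.1 to 87.7 CPM in Smox-/- mice, against 77.6 to 119.9 CPM in WT mice, and after AOM-DSS alone 118 to 306 CPM in Smox-/- mice, against 120.3 to 235 CPM in WT mice. After AOM-DSS plus spermidine every Smox-/- library, at 23.96 to 88.8 CPM, was below every WT library, at 111 to 134 CPM. The sum is mostly Ly6g, named here after its values were seen, which averaged 66.7 CPM in Smox-/- mice and 109.95 CPM in WT mice (adjusted p = 0.372, edgeR). Of 7 mast cell genes Mcpt1 (1.69) and Mcpt2 (1.56) rose, of 8 monocyte genes Ccr2 (1.27) did, and of 8 lymphoid genes Cd3e (1.59) and Jchain (1.48) did. Of 6 genes of distal hindgut position 4 fell, with summed levels of 67.3 to 596 CPM in Smox-/- mice, against 11.8 to 957 CPM in WT mice. Their part in the C1q result was not tested.

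**Figure D2:**
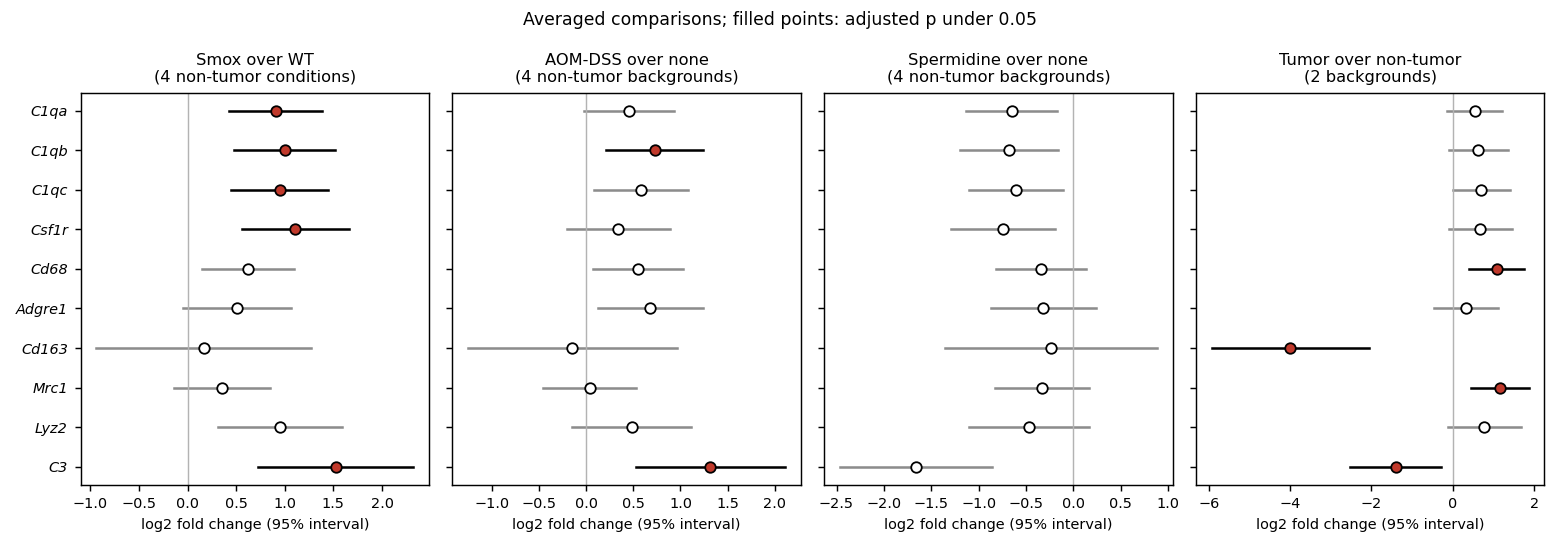
Log2 fold changes of the 10 genes with 95% intervals in the 4 averaged comparisons (Smox-/- over WT, AOM-DSS over none, spermidine over none, tumor over non-tumor), with an adjusted p under 0.05 marked by a filled point. C1qa, C1qb, C1qc, Csf1r and C3 are marked for genotype, Cd163 lies far to the left for tumors at -3.99, and nothing is marked for spermidine.

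Outside tumors, C3 and C1qb were higher after AOM-DSS, 2 of the 10 genes, where 20.9% of all genes passed. Averaged over both genotypes with and without spermidine, C3 rose 2.49-fold and C1qb 1.65-fold. The C1qb call was lost under 15 of 30 other settings. The macrophage markers Cd68, Adgre1, Csf1r, Mrc1, Lyz2 and Cd163, and C1qa and C1qc, did not pass.

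C3 averaged 116 CPM with AOM-DSS and 36.7 CPM without it (log2 fold change 1.32, SE 0.384, adjusted p = 0.0187, edgeR). In Smox-/- mice C3 had 239.6, 513 and 199 CPM after AOM-DSS, against 53.5, 129 and 49.9 CPM in untreated colon, with no overlap (2.03, SE 0.782, adjusted p = 0.264, edgeR). In WT mice it had 129, 50.9 and 31.3 CPM after AOM-DSS, against 13.9, 15.8 and 53.2 CPM in untreated colon, with overlap. C1qb averaged 14.7 CPM with AOM-DSS and 9.84 CPM without it (0.73, SE 0.248, adjusted p = 0.0409, edgeR). In WT mice C1qb had 19.2, 10.8 and 9.49 CPM after AOM-DSS, against 3.02, 7.55 and 7.64 CPM in untreated colon, and C1qa, C1qc and Cd68 likewise did not overlap there. The share of all genes without overlap was not counted. In Smox-/- mice C1qb had 16.4, 23.9 and 27.8 CPM after AOM-DSS, against 14.9, 28.6 and 15.3 CPM in untreated colon, and the groups overlapped. The averaged log2 differences of the others were 0.45 for C1qa, 0.58 for C1qc, 0.55 for Cd68, 0.68 for Adgre1, 0.48 for Lyz2, 0.34 for Csf1r, 0.03 for Mrc1 and -0.15 for Cd163.

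So 2 of 10 genes passed in the average, both higher, a share near the 20.9% of all genes that passed, and 8.69% of all genes passed as higher. The C3 call held without each of the 24 libraries, with adjusted p up to 0.0418 (edgeR). The C1qb call was lost with each of 12 libraries left out, with adjusted p up to 0.0963. These were replicate 1 of untreated WT, replicates 1 and 3 of untreated Smox-/-, replicates 1 and 3 of WT and 2 and 3 of Smox-/- after spermidine, replicate 1 of WT and 3 of Smox-/- after AOM-DSS alone, and replicates 1 and 2 of WT and 1 of Smox-/- after AOM-DSS plus spermidine. The count was then 1, C3 alone, or, without replicate 3 of Smox-/- after spermidine, 2. It was 5 without replicate 2 of Smox-/- non-tumor tissue after AOM-DSS plus spermidine, and 1 without both atypical libraries. In the 4 separate comparisons none of the 10 genes passed with edgeR or DESeq2. Of all genes 6.44% passed in WT mice, 0.0767% in Smox-/- mice, 1.91% in WT mice with spermidine and 0.0205% in Smox-/- mice with spermidine. An unadjusted p under 0.05 was found with edgeR for 3, 1, 0 and 0 of the 10 genes in the same order, and for 24.6%, 12.95%, 19.5% and 16.3% of all genes.

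Among the other lists, 7 of 9 neutrophil genes rose with AOM-DSS, Retnlg (4.802), Ngp (4.71), Mmp8 (4.31) and S100a9 (2.77) most on the log2 scale. Of 7 mast cell genes Cpa3 (2.1001), Mcpt1 (2.09) and Mcpt2 (2.05) rose. Of 19 other macrophage genes 7 rose, with Spp1 (2.05) and Trem2 (1.33) ahead, and Maf (-1.396) fell. Of 8 genes of alternative activation Chil3 (4.79) and Msr1 (0.76) rose and Retnla (-3.31) fell. Of 5 terminal complement genes C7 (-2.64) and Hc, which encodes C5 (-1.72), fell, and of 3 alternative pathway genes Cfd, which encodes factor D, did (-3.62). The regulator Cfi, which encodes factor I, rose (3.14), as did the CSF1 receptor ligand Il34 (0.78). All 8 skeletal muscle and 2 of 6 smooth muscle genes fell, the smooth muscle list summing to 324 to 4012 CPM after AOM-DSS, against 857 to 8117 CPM without it. Of 6 distal hindgut position genes 4 fell. Their part in the result was not tested.

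Spermidine in the drinking water gave no difference past the test in any of the 10 genes. All 10 were lower on average with spermidine than without it outside tumors, with a median log2 difference of -0.54, against -0.01 over all genes tested. Most of the 10 vary together, so that their shared direction is not 10 separate results. C3 had the largest difference, with 30.03 CPM with spermidine and 123 CPM without it. Smox-/- non-tumor tissue after AOM-DSS alone, at 317 CPM, carried most of the latter mean. The other groups without spermidine averaged 27.6 to 77.4 CPM.

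In Smox-/- mice without AOM-DSS, C1qa had 14.7, 7.98 and 12.7 CPM with spermidine, against 21.6, 29.7 and 20.8 CPM in untreated colon (log2 fold change -1.03, SE 0.465, adjusted p = 0.516, edgeR). Csf1r had 10.3, 5.16 and 9.79 CPM with spermidine, against 13.04, 33.3 and 16.1 CPM in untreated colon (-1.31, SE 0.533, adjusted p = 0.498, edgeR). The libraries did not overlap between these groups for C1qa, C1qb, C1qc, Csf1r, Cd68 or C3. Most of these genes vary together, and the share of all genes without overlap was not counted. In WT mice C1qa had 5.29, 10.1 and 6.603 CPM with spermidine, against 3.73, 7.84 and 11.8 CPM in untreated colon, and the groups overlapped (-0.09). The untreated groups here are also those of the genotype comparison. After AOM-DSS, C3 in Smox-/- non-tumor tissue had 59.3, 38.03 and 63.1 CPM with spermidine, against 239.6, 513 and 199 CPM without it, with no overlap (-2.57, SE 0.797, adjusted p = 0.218, edgeR). In WT non-tumor tissue C3 had 23.2, 35.8 and 15.1 CPM with spermidine, against 129, 50.9 and 31.3 CPM without it, with overlap.

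In the average over 4 backgrounds 0 of the 10 genes passed with edgeR, as did 0% of all genes, and 5 had an unadjusted p under 0.05, as had 12.5% of all genes. The 5 were C1qa (-0.65), C1qb (-0.68), C1qc (-0.61), Csf1r (-0.75) and C3 (-1.66, SE 0.387, adjusted p = 0.135, edgeR). DESeq2 called 1, C3 (adjusted p = 0.00249). In the 4 separate comparisons edgeR called 0 of the 10 genes, and 0.00511%, 0%, 0% and 0% of all genes, in WT and Smox-/- mice without AOM-DSS and in WT and Smox-/- mice with it. At an unadjusted p under 0.05 the counts were 0, 4, 0 and 1 of the 10 in the same order, with shares of all genes of 16.1%, 9.33%, 5.67% and 13.7%, and DESeq2 called C3 in the last (adjusted p = 0.0342) and none in the others. All 19 other macrophage genes had a log2 fold change below 0, with a median of -0.51, and 0 passed with edgeR (5 at an unadjusted p under 0.05). All 9 neutrophil genes were below 0 too, with a median of -1.97, and 0 passed (6 at an unadjusted p under 0.05). Genes of a list can vary together and are not separate results.

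On average, tumors held more Cd68 and Mrc1 transcript and less Cd163 and C3 than non-tumor tissue of mice given the same treatment. These are 4 of the 10 genes, not a larger share than the 47.3% of all genes that passed. Averaged over Smox-/- mice after AOM-DSS alone and WT mice after AOM-DSS plus spermidine, tumor over non-tumor, Cd68 rose 2.11-fold and Mrc1 2.23-fold, while the log2 level of Cd163 fell by 3.99 and that of C3 fell by 1.41. Taken separately, Cd68 passed only in WT mice, C3 only in Smox-/- mice and Mrc1 in neither. The log2 difference of Cd68 was 0.35 in Smox-/- mice, and that of C3 was -0.33 in WT mice. The averaged C3 call was lost under 9 of 18 other settings. C1qa and C1qc rose in WT tumors, 2.33-fold and 2.44-fold. In Smox-/- mice their log2 differences were -0.14 and 0.11. The contrast was not tested, and these WT mice had spermidine while the Smox-/- mice did not, so that genotype and spermidine cannot be told apart. Mean C1qa was 22.5 CPM in WT and 22.96 CPM in Smox-/- tumors, against 9.61 and 25.4 CPM in their non-tumor tissue.

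Cd68 had 7.74, 7.23 and 6.9995 CPM in WT tumors, against 2.79, 2.35 and 1.14 CPM in WT non-tumor tissue (log2 fold change 1.7998, SE 0.472, adjusted p = 0.00619, edgeR). It had 4.503, 6.56 and 4.98 CPM in Smox-/- tumors, against 4.33, 3.87 and 4.35 CPM in Smox-/- non-tumor tissue (0.35, adjusted p = 0.597, edgeR). Tumor libraries lay above non-tumor ones in both, narrowly in Smox-/- mice. Mrc1, which binds mannose-bearing glycoproteins, had 10.5, 17.3 and 13.6 CPM in WT tumors, against 9.08, 4.77 and 4.699 CPM in WT non-tumor tissue (1.16, SE 0.483, adjusted p = 0.0674, edgeR). Mrc1 had 13.5, 15.3 and 23.98 CPM in Smox-/- tumors, against 8.34, 9.42 and 5.93 CPM in Smox-/- non-tumor tissue (1.16, SE 0.482, adjusted p = 0.0785, edgeR). Neither Mrc1 difference passed alone, both were without overlap, and their average passed (1.16, SE 0.341, adjusted p = 0.00822, edgeR).

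Cd163 was almost undetected in tumors. It had 2 counts in the 3 WT tumor libraries together, against 55 counts in the 3 WT non-tumor libraries, a 32.8-fold lower level with an exact 95% counting interval of 8.67 to 278. It had 13 counts in the Smox-/- tumors, against 121 counts in Smox-/- non-tumor tissue, an 11.01-fold lower level with an interval of 6.204 to 21.3. These intervals cover counting error only. By library, Cd163 had 0.0164, 0.0164 and 0 CPM in WT tumors, against 0.6698, 0.156 and 0.127 CPM in WT non-tumor tissue. Replicate 1 of the WT non-tumor tissue gave 41 of the 55 counts, and without it the fitted log2 fold change in WT mice was -3.48, against -4.66 with it, and did not pass (adjusted p = 0.093, edgeR). Cd163 had 0.0587, 0.0154 and 0.134 CPM in Smox-/- tumors, against 0.917, 1.04 and 0.151 CPM in Smox-/- non-tumor tissue, with no overlap. The averaged log2 fold change was -3.99 (SE 0.936, adjusted p = 0.00153, edgeR), and adjusted p was 0.0166 in WT and 0.045 in Smox-/- mice (edgeR). Low Cd163 was not confined to tumors. WT non-tumor tissue after AOM-DSS alone, not part of these comparisons, had 26, 5 and 0 counts. Replicate 1 of Smox-/- non-tumor tissue after AOM-DSS plus spermidine, an atypical library, had 3 counts (0.0395 CPM).

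C3 had 16.1, 14.2 and 139 CPM in Smox-/- tumors, against 239.6, 513 and 199 CPM in Smox-/- non-tumor tissue (log2 fold change -2.49, SE 0.795, adjusted p = 0.0284, edgeR). Replicate 3 of the tumors was far above the others, and it also had the lowest sum of 10 Wnt target genes among the 6 tumors, 297 CPM against 1767 to 4606 CPM. In WT mice C3 had 11.7, 29.7 and 17.6 CPM in tumors, against 23.2, 35.8 and 15.1 CPM in non-tumor tissue, with overlap (-0.33, adjusted p = 0.767, edgeR).

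Every WT tumor library held more transcript of each C1q gene than any library from WT non-tumor tissue after AOM-DSS plus spermidine. Replicate 1 of WT non-tumor tissue after AOM-DSS alone, which was not compared, had 20.7 CPM of C1qa, within the WT tumor range. C1qa had 26.3, 19.4 and 21.7 CPM in WT tumors, against 12.97, 12.3 and 3.52 CPM in WT non-tumor tissue (log2 fold change 1.22, SE 0.468, adjusted p = 0.0467, edgeR). C1qc had 20.01, 14.4 and 15.2 CPM in WT tumors, against 8.71, 8.35 and 3.21 CPM in WT non-tumor tissue (1.29, SE 0.484, adjusted p = 0.0432, edgeR). C1qb (1.22, adjusted p = 0.0612, edgeR), Lyz2 (1.55, adjusted p = 0.0581, edgeR) and Csf1r (1.13, adjusted p = 0.104, edgeR) were also without overlap in WT mice but did not pass. In Smox-/- mice C1qa had 16.2, 29.8 and 22.9 CPM in tumors, against 19.98, 28.7 and 27.5 CPM in non-tumor tissue (-0.14, 95% interval -1.096 to 0.81). Lyz2 had 53.4, 82.6 and 99.7 CPM in Smox-/- tumors, against 71.99, 55.4 and 108 CPM in Smox-/- non-tumor tissue (0.00, 95% interval -1.26 to 1.26). Both overlapped between tumor and non-tumor tissue.

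In all, 4 of 10 genes passed in WT mice, 3 higher and 1 lower, where 34.4% of all genes passed, 16.9% as higher and 17.5% as lower. In Smox-/- mice 2 passed, both lower, where 24.6% of all genes passed and 13.2% as lower. In the average 4 passed, 2 in each direction, where 47.3% of all genes passed, 23.5% as higher and 23.9% as lower. The share of the 10 genes in the average was thus not above that of all genes.

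Cd68, Mrc1 and Cd163 passed in the average without each of the 12 libraries, with adjusted p up to 0.029, 0.0239 and 0.00725 (edgeR). C3 was lost from the average without replicate 2 of Smox-/- non-tumor tissue, replicate 1 or 2 of WT non-tumor tissue, replicate 1 or 3 of the WT tumors, or replicate 1 or 2 of the Smox-/- tumors, with adjusted p up to 0.104. Among WT mice Cd68 held throughout, C1qa and C1qc were lost without any of 5 of the 6 libraries, all but replicate 1 of non-tumor tissue, with adjusted p up to 0.2 and 0.183, and Cd163 without replicate 1 of non-tumor tissue or 3 of the tumors, up to 0.093. The WT count was 2 without replicate 2 or 3 of non-tumor tissue or 1 or 2 of the tumors, 1 without replicate 3 of the tumors, and 7 with DESeq2 or without both atypical libraries, which belong to other groups. The Smox-/- count was 1 without replicate 1 of non-tumor tissue, 0 without replicate 2 of non-tumor tissue or 1 or 2 of the tumors, and 3 without both atypical libraries. There adjusted p reached 0.132 for C3 and 0.157 for Cd163.

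Tumor and non-tumor samples also differed in genes of other cells. All 6 smooth muscle genes fell in the average, with 25.2 to 971 CPM summed in the tumors, against 846 to 4012 CPM in non-tumor tissue. All 10 Wnt target genes rose, and 9 of 12 epithelial genes fell, Aqp8 (-5.48) and Slc26a3 (-5.22), of the mature colonocyte, most on the log2 scale. Of 8 lymphoid genes tested 5 fell, as C3 did, among them the B cell gene Ms4a1 (-5.33) and the plasma cell gene Jchain (-2.804). The lymphoid list summed to 10.5 to 111 CPM in Smox-/- tumors, against 323 to 503 CPM in Smox-/- non-tumor tissue, and to 2.696 to 13.5 CPM in WT tumors, against 13.4 to 101 CPM in WT non-tumor tissue. Of 6 lymphatic endothelial genes 1 rose in WT tumors, Prox1 (7.75), and 1 fell, Ccl21a (-1.95). That list, mostly Prox1 in tumors, summed to 359 to 601 CPM in WT tumors, against 22.95 to 34.9 CPM in WT non-tumor tissue. Their part in the results for the macrophage genes was not tested.

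In the same average 3 of 19 other macrophage genes rose and 4 fell, while 23.5% of all genes rose and 23.9% fell, so that the list's shares were not above those of all genes. Spp1 (5.33), the membrane glycoprotein Gpnmb (1.95) and the lipid receptor Trem2 (1.35) rose, and Mertk, a receptor for the uptake of dying cells, fell (-2.14). Of 10 tissue-resident macrophage genes Igf1 (2.36) rose and Cd209f (-4.62), Gas6 (-1.24) and Lyve1 (-0.92) fell. Of 8 genes of alternative activation 3 rose, Arg1 (4.58) and Ccl24 (2.93) most, and Retnla (-3.97) and Clec10a (-1.77) fell. The ligand gene Csf1 rose (1.93), with 21.6 CPM in tumors and 5.78 CPM in non-tumor tissue. Of 12 complement regulators 2 rose, Cfi (6.91) and Clu, which encodes clusterin (3.19), and 3 fell, Cd59b (-3.77) and Cd59a (-2.11) most. Terminal pathway C7 (-5.495) and C8g (-1.04) and the receptors Cr2 (-5.604) and Lrp1 (-1.07) fell, and C1s2, a classical pathway protease gene, rose (2.31).

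**Figure D3:**
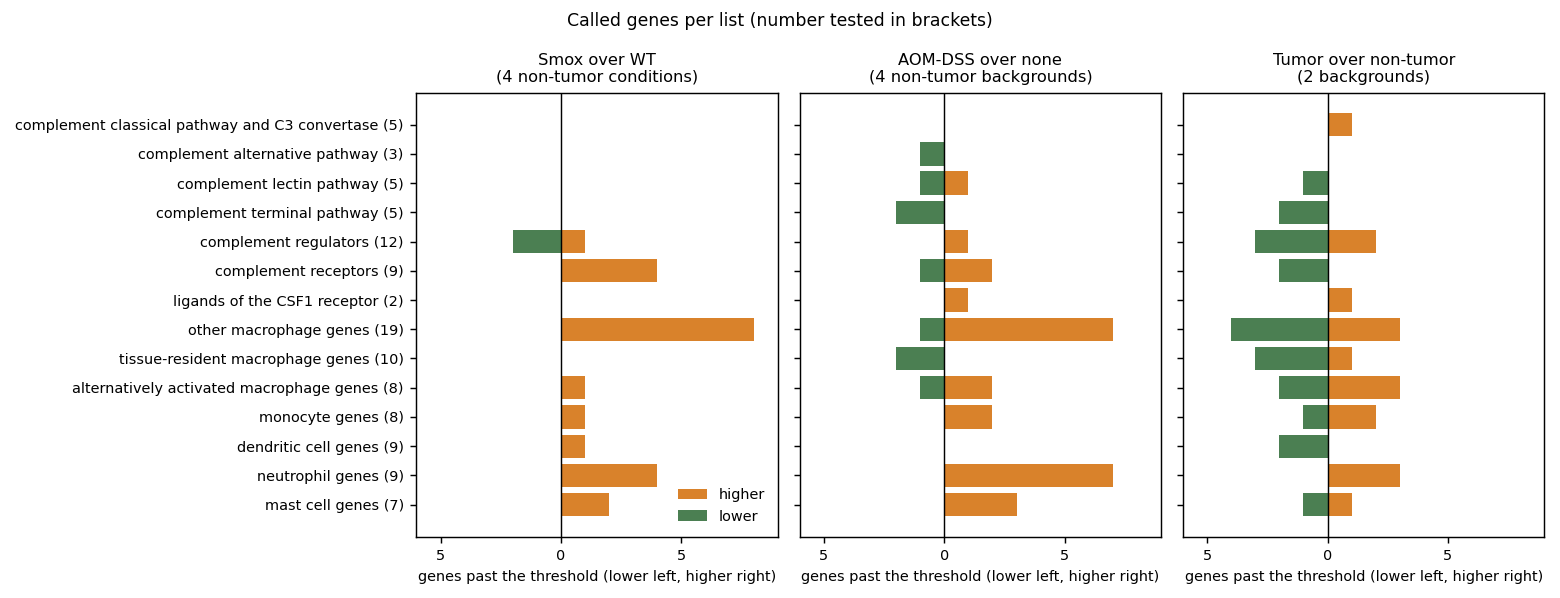
Number of genes per list that passed an adjusted p of 0.05 (edgeR), lower to the left and higher to the right, for the genotype, AOM-DSS and tumor averages, with the number tested in brackets. The other macrophage genes are on the right for genotype (8 of 19) and on both sides for tumors (3 higher, 4 lower).

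Smox-/- tumors after AOM-DSS alone were set against WT tumors after AOM-DSS plus spermidine. C1qa averaged 22.96 ± 6.82 CPM in Smox-/- tumors and 22.5 ± 3.51 CPM in WT tumors (log2 fold change 0.03, 95% interval -0.92 to 0.98). With edgeR 0 of the 10 genes passed and 0 had an unadjusted p under 0.05, as had 5.61% of all genes, DESeq2 called 0, and 0.0614% of all genes passed with edgeR. The C1qa interval includes the averaged genotype difference of 0.90 outside tumors, and the groups also differ in spermidine. C3 averaged 56.6 ± 71.7 CPM in Smox-/- tumors and 19.7 ± 9.16 CPM in WT tumors (1.52, adjusted p = 0.915, edgeR), and 1 Smox-/- library, replicate 3, carried most of that mean. Cd68 had 4.503, 6.56 and 4.98 CPM in Smox-/- tumors, against 7.74, 7.23 and 6.9995 CPM in WT tumors, without overlap and without passing (-0.45).

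**Figure D4:**
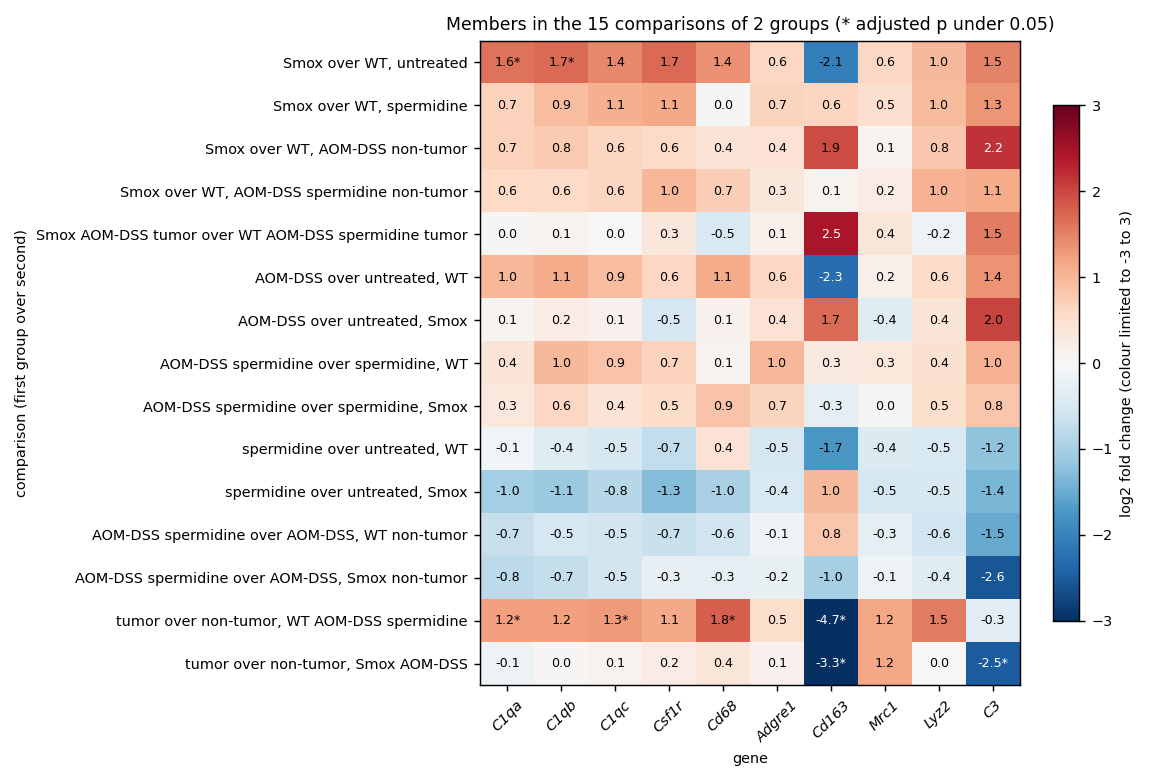
Log2 fold change of each gene (columns) in the 15 comparisons of 2 groups (rows, group named first over group named second), with colour limited to -3 to 3 and asterisks for an adjusted p under 0.05. Asterisks are in the untreated genotype comparison (C1qa, C1qb) and in the tumor comparisons (Cd68, C1qa, C1qc and Cd163 in WT, Cd163 and C3 in Smox-/-).

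Over the 30 libraries most of the genes varied with C1q and others varied apart. Against the mean log2 CPM of the C1q genes, Pearson's r was 0.959 for Csf1r (Spearman's rho 0.952), 0.932 for Lyz2 (Spearman's rho 0.916), 0.896 for Cd68 (Spearman's rho 0.907) and 0.873 for Adgre1 (Spearman's rho 0.8398). It was lower for Mrc1 at 0.708 (rho 0.731) and C3 at 0.559 (rho 0.485), and below 0 for Cd163 at -0.278 (rho -0.3204). Each C1q gene had an r of 0.978 to 0.982 with the mean of the other pair. Without the 2 libraries farthest from the median C1q level, r was 0.947 for Csf1r, 0.668 for Mrc1 and -0.311 for Cd163. With group means removed, r was 0.956 for Csf1r, 0.573 for Mrc1 and 0.132 for Cd163. These values describe libraries whose genes share depth, scaling and tissue make-up.

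**Figure D5:**
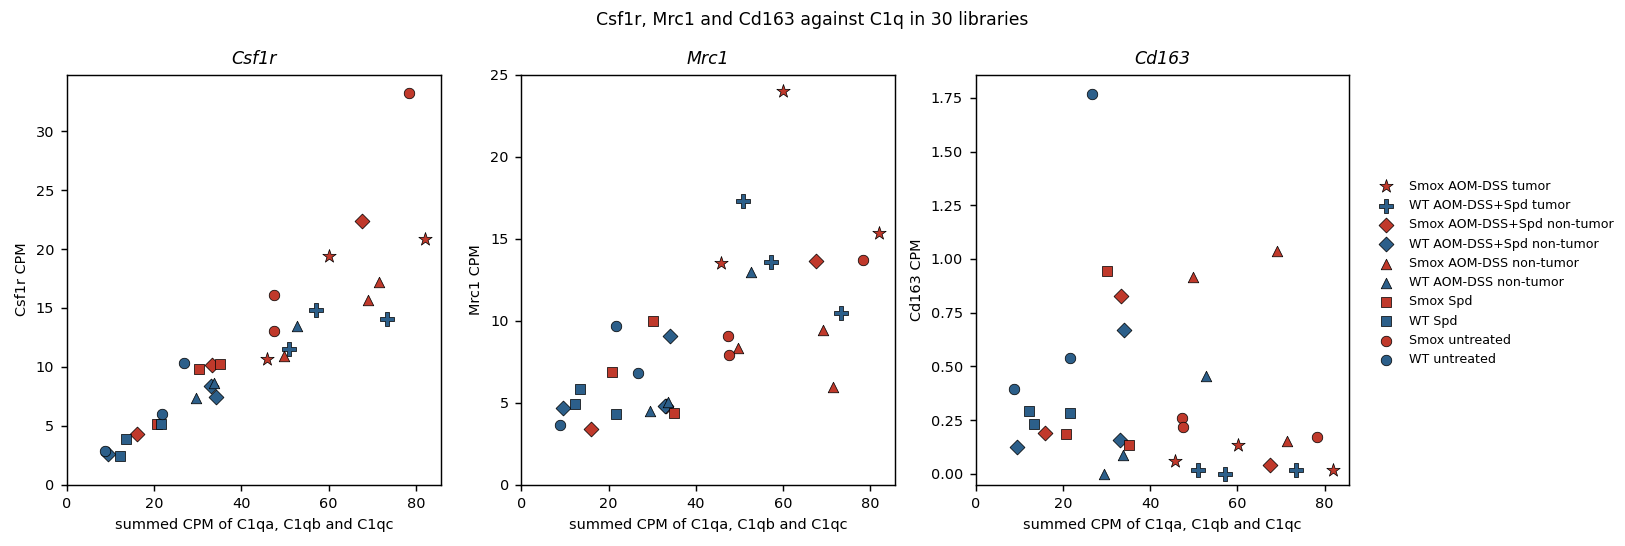
Csf1r, Mrc1 and Cd163 (CPM, vertical axes) against the summed CPM of C1qa, C1qb and C1qc (horizontal axes), with 1 point per library (n = 30), red for Smox-/- and blue for WT and symbols for treatment and tissue. Csf1r climbs with C1q over the whole range, and Mrc1 does so with more scatter and is high in tumors. Cd163 lies near 0 in all 6 tumors although their C1q is high, and also in certain non-tumor libraries.

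Outside the 10 genes, those with the highest r with the C1q mean over the 30 libraries were Cd300c2 (0.961), Mpeg1 (0.956), Tyrobp (0.948), Fcgr3 (0.947), Tlr13 (0.939), Igsf6 (0.934), Fcer1g (0.934), Pilra (0.931), Ms4a6c (0.928) and C5ar1 (0.928). Mpeg1 encodes a perforin-like protein of macrophages, Tyrobp and Fcer1g signalling adaptors, Fcgr3 an Fc receptor and C5ar1 a receptor for C5a. Without the 2 farthest libraries their r ran from 0.908 to 0.949. Among the 19555 tested genes other than C1qa, C1qb and C1qc, Csf1r ranked 2 on this measure, below Cd300c2 alone, Lyz2 9, Cd68 36, Adgre1 56, Mrc1 465, C3 1527 and Cd163 14140.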

How the data were processed

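The deposited values are estimated counts per gene, which the authors made from RNA-seq reads. Per the submitters' processing notes, fastp, Salmon and DESeq2 were used with the GRCm38 genome, and their versions are not given in the sources used here. Per the labels, total RNA came from the RNeasy Mini kit and the library kit was NEBNext Ultra II Directional, which keeps strand. The table holds 31023 genes. Salmon divides reads shared by similar transcripts, which can move counts between genes such as Lyz2 and Lyz1, and library totals of 33060607 to 81011304 limit what can be said of genes with few counts, such as Cd163. Reads carry no molecular identifiers here, so counting intervals cover counting error only.

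Genes with too few counts were removed (edgeR's filterByExpr by group, minimum count 10, minimum total 15), which left 19558 genes and removed 11465. Counts were rounded to whole numbers for DESeq2 and not for edgeR. Libraries were scaled by TMM. One quasi-likelihood fit over all 10 groups (edgeR 4.0.16 with limma 3.58.1, R 4.3.3, 20 residual degrees of freedom) gave every comparison, with Benjamini-Hochberg adjustment over all tested genes, a threshold of 0.05 and a prior count of 2 for log2 CPM. Intervals of log2 fold changes are 95% intervals. Averaged comparisons weight each background equally. Where groups are said not to overlap, the share of all genes without overlap was not counted. The fit was tested on simulated data with 200 changed genes. The alternatives were DESeq2 1.42.0, scaling by relative log expression (RLE), a filter of 1 CPM in 3 libraries, no filter, fits on a comparison's own groups, leaving out each library, and leaving out 2 libraries that an earlier analysis had shown to be atypical. Summaries used Python 3.11.15, numpy 2.4.6, pandas 2.3.3 and scipy 1.17.1. Exon lengths and gene positions are from GENCODE vM21 (GRCm38).

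The 10 genes and the other gene lists were chosen with earlier results of these data known. All 10 are named, and of each other list up to 4 genes that passed with the largest log2 fold change, or up to 2 of the highest level where none passed. Sums of lists of other cells are also given. Results of 2 list genes are not reported here. Each group is 3 samples, the labels give no animal, cage, batch or date, and p-values measure only the spread between these samples, which may be technical.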

Additional observations from a re-analysis of the deposited data

How the results depend on the processing

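The count of the 10 genes that passed depended on the processing in these comparisons. For genotype in untreated mice it was 2 with edgeR as reported, 5 with DESeq2, 1 with RLE scaling, and 0 without the filter, on the comparison's own groups, without both atypical libraries, or (0 to 0) without any 1 library. For the genotype average it was 5 and ran from 1 to 7 with 1 library left out. For the AOM-DSS average it was 2, ran from 1 to 5 with 1 library left out, and was 1 on its own groups, without the filter or without both atypical libraries. For the spermidine average, and for spermidine after AOM-DSS in Smox-/- mice, it was 0 with edgeR and 1 with DESeq2. For tumors of WT mice it was 4, ran from 1 to 4 with 1 library left out, and was 2 without the filter and 7 with DESeq2 or without both atypical libraries. For tumors of Smox-/- mice it was 2, ran from 0 to 2 with 1 library left out, and was 1 on its own groups or with the 1 CPM filter, 0 without the filter and 3 without both atypical libraries. The gene called on its own groups was neither C3 nor Cd163. The tumor average was 4, ran from 3 to 4 with 1 library left out, and was 3 with either other filter setting. On its own groups the tumor average stayed at 4, but C3 was not among the genes called. The test of any difference among groups gave 8, ran from 6 to 9 with 1 library left out, and gave 7 with the 1 CPM filter and 9 without both atypical libraries. The cause of these shifts was not tested, except that no filter adds genes to the adjustment and leaving out libraries lowers their number. Cd163 was removed by the 1 CPM filter, and by edgeR's filter on the own groups of the WT and of the Smox-/- tumor comparison. It was not tested there and could not be counted under those settings. In the other comparisons the count was 0 under every setting run. Over all genes, those that passed in the untreated genotype comparison numbered 1164, and 6 to 1351 with 1 library left out. No called log2 fold change of the 10 genes changed sign under any setting run. No paired analysis was possible because the table's columns carry no replicate numbers shared between groups, and numbers given in accession order only name the samples. Depth limits Cd163, with 0 to 92 counts a library.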
